A study of Caenorhabditis elegans with 2 samples.

Results

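The 8 genes described here encode the DREAM complex of Caenorhabditis elegans: lin-9, lin-37, lin-52, lin-53 and lin-54 of the MuvB core, the pocket protein gene lin-35, and efl-1 and dpl-1, which encode the E2F and DP partners. They were taken by gene name from the annotation, 8 of 19973 nuclear protein-coding genes. The rule for membership uses no peak value, but the list was drawn up with earlier results of these data known. The data were chromatin immunoprecipitation sequencing (ChIP-seq) peak lists for LIN-13, a zinc-finger protein, in whole L4 larvae. Both biological replicates came from strain OP49 and held pooled males and females. This strain has the mutation unc119(ed3) and the transgene wgIs49, which holds a lin-13 fusion (TY1, EGFP and FLAG tags) together with a copy of unc119. The labels name no mutation of the endogenous lin-13. The antibody is labelled lin-13 in one field, while the description gives the tagged protein eGFP-lin-13 as the target. There was 1 group of 2 replicates with no second condition and no untreated arm, so no difference between conditions was tested. Read depth is unknown, because the peak lists hold no read counts, and whole larvae do not resolve cell types.

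The DREAM complex joins an E2F and DP heterodimer, a retinoblastoma-family pocket protein and the MuvB core, and it represses cell cycle genes in cells that have stopped dividing. In worms it also keeps germline genes silent in somatic tissue, and its subunits belong, like LIN-13, to the synMuv B class of genes that restrain vulval fate. E2F proteins recognise GC-rich elements in promoters, and LIN-54 recognises AT-rich CHR elements (cell cycle genes homology region).

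The DNA under the highest LIN-13 peak is shown for 5 of the genes, on the strand of the gene named, so that words shared between peaks can be seen in place. Capitals mark 4 kinds of words on either strand: the E2F-like words TTCCCGC and TTGGCGC, the CHR-like words TTTGAA and TTCGAA, and the 9-base words GTGGAGCGC and AGACGCAGA. On the other strand the 9-base words read GCGCTCCAC and TCTGCGTCT, and the first CHR-like word reads TTCAAA. The sequences are from the RefSeq WBcel235 genome (ce11): the whole 165-bp peak upstream of lin-9 (chrIII:8904202-8904366, minus strand), 120 bp at the peak between lin-54 and rpl-12, starting next to the rpl-12 exon (chrIV:13240652-13240771, plus strand), and 201 bp centred on the summit for efl-1 (chrV:16965733-16965933, minus strand), lin-52 (chrIII:9826173-9826373, minus strand) and lin-37 (chrIII:7074047-7074247, minus strand). The lin-37 peak is the one member peak shown that was absent from the reproducible list.
lin-9: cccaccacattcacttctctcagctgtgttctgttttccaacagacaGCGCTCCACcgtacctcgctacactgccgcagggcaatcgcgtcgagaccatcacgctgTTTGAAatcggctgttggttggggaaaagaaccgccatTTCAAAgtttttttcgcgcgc
lin-54: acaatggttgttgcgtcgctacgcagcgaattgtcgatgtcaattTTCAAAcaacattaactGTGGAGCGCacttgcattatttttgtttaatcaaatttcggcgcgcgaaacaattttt
efl-1: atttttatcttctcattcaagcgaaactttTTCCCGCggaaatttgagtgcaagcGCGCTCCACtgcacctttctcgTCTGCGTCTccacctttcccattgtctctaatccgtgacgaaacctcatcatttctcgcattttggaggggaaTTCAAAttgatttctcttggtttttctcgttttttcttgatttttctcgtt
lin-52: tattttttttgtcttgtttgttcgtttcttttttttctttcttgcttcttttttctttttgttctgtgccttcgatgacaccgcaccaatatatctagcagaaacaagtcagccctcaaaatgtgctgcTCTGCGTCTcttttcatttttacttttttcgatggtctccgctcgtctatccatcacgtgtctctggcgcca
lin-37: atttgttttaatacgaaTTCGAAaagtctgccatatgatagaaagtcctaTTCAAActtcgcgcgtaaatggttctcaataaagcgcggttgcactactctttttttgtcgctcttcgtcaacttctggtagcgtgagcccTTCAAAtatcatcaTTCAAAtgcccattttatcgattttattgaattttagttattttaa
The first 3 of these sequences carry GTGGAGCGC or its reverse complement. The efl-1 and lin-52 sequences carry TCTGCGTCT. In the bases shown, efl-1 alone has an E2F-like word. The lin-54 peak has one too within 100 bp of its summit, in the rpl-12 exon outside the 120 bp printed.

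LIN-13 had a reproducible peak next to most of these genes. The list made by the irreproducible discovery rate step (IDR list) held 2141 peaks, which were the pooled peaks of highest signal value, 2121 of them nuclear. It placed a summit inside or within 2 kb of 6 of the 8 genes, against 15.8% of all protein-coding genes. The exceptions were lin-37 and dpl-1. At 5 of the 8 (lin-9, lin-54, lin-53, lin-35 and efl-1) the IDR list placed its summit no more than 500 bp from an annotated 5' end, as it did for 6.99% of genes. With the pooled relaxed list, 30000 peaks called loosely as input for IDR, 7 of the 8 had a 5' end with a summit no more than 500 bp away, against 39% of genes. lin-37 was the gene without one. These counts are descriptions of a list of 8 genes and were not tested.

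The IDR peaks at these genes had their summits outside the gene bodies. In all 8 IDR peaks had a summit within reach, with 2 each at lin-9 and lin-54. The gene body held a summit in 0 of the 8 genes. That was uncommon over all genes too: 565 (2.83%) held one, against 3148 with a summit inside or within 2 kb. The 5 summits near 5' ends were all upstream, 155 to 373 bp away with a median of 168 bp. Over the 1397 genes with an IDR summit that near, the median distance was 206 bp and the summit was upstream in 90.7%. The 5 peaks near 5' ends were also high in the list: their median signal value was 109.7, against 60.7 over those 1397 genes. The remaining IDR peaks, at lin-54 (45.9), lin-9 (42.7) and lin-52 (41.3), were below the median of the IDR list (56.6). A signal value is the value the authors deposited for a peak, and its scaling is not stated. Peaks are called high or low by this value.

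**Figure D1:**
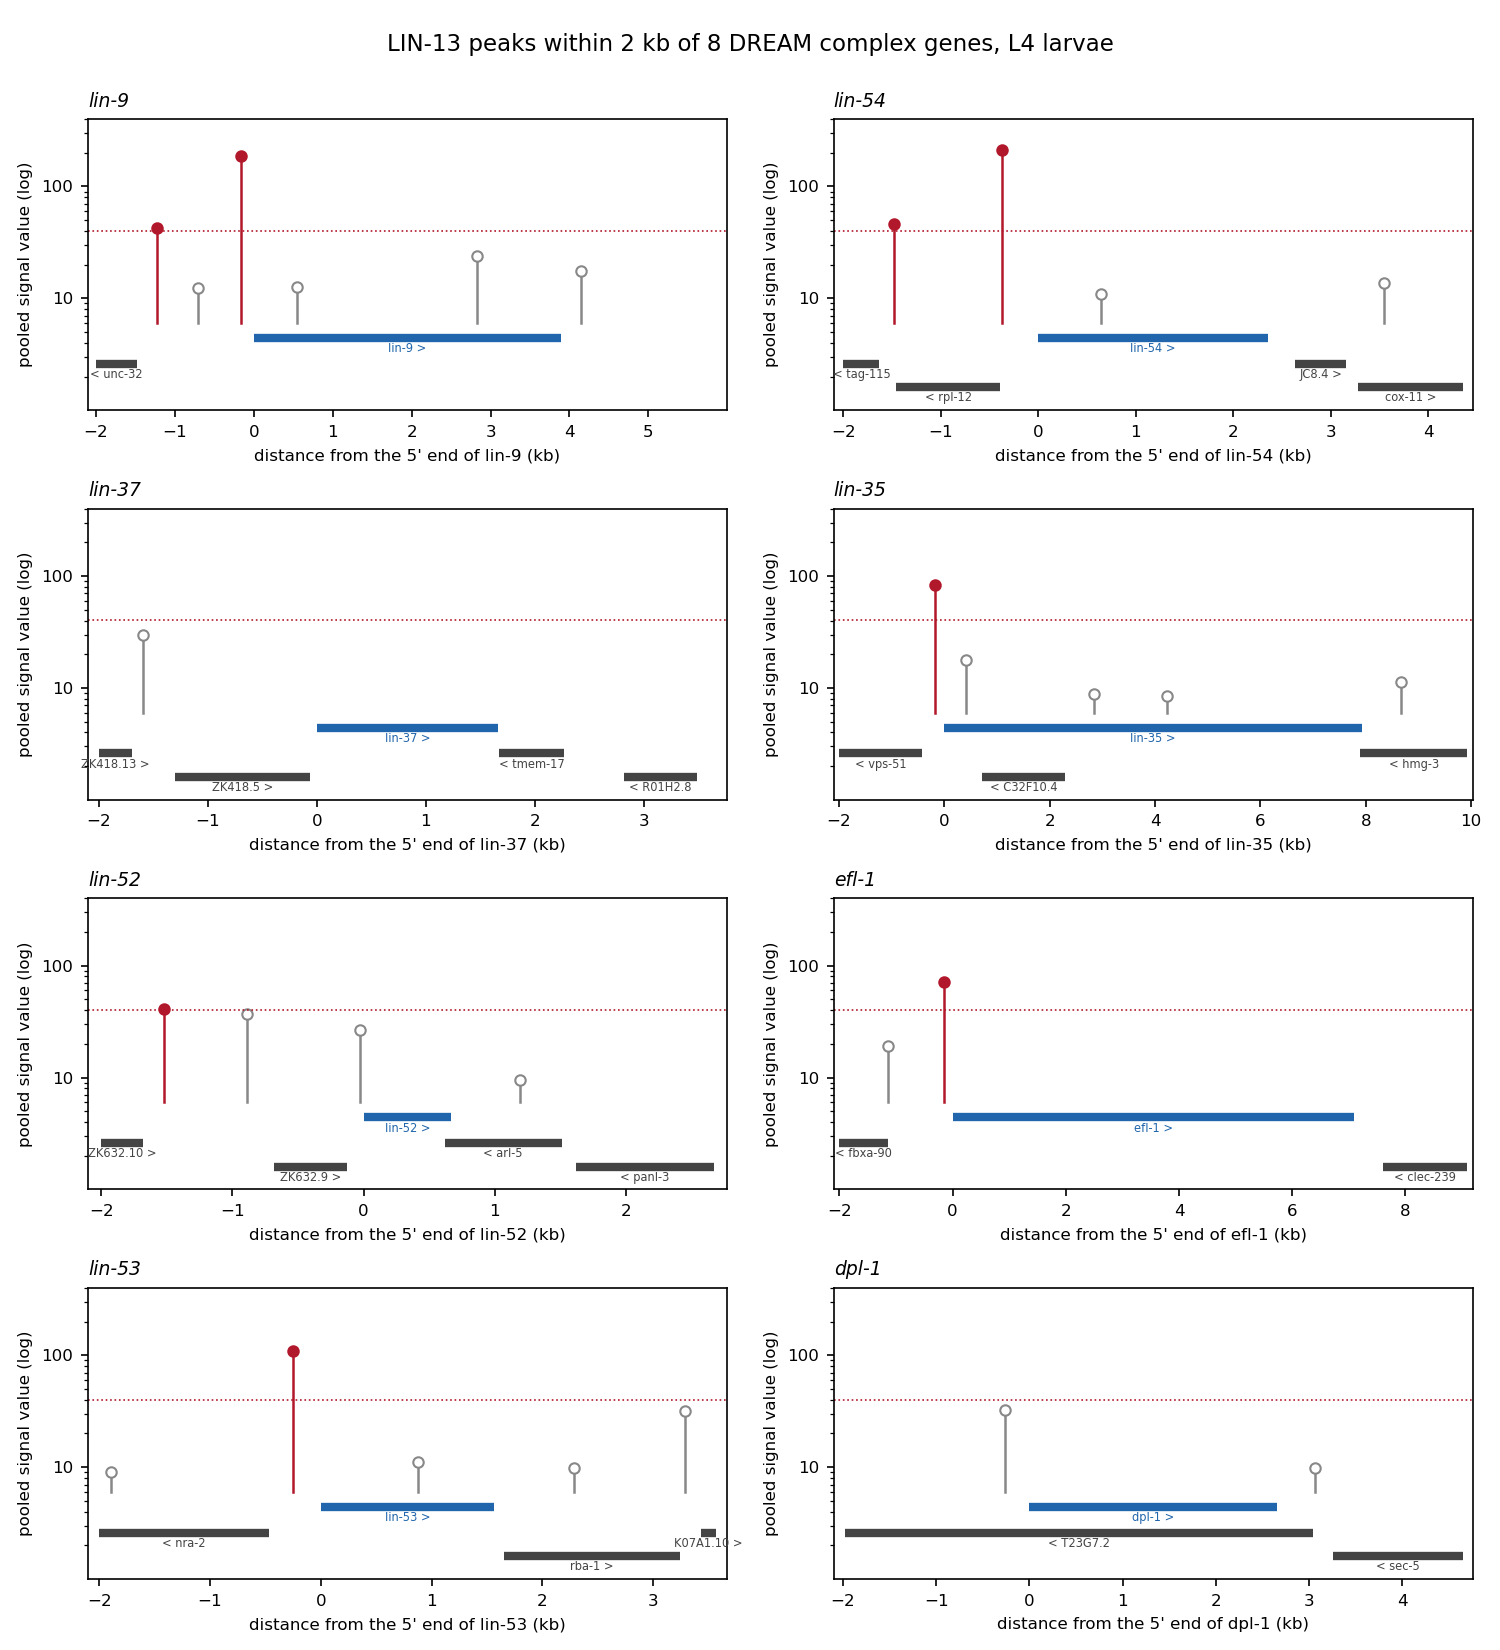
Pooled LIN-13 peaks within 2 kb of each of the 8 genes, by distance of the summit from the gene's 5' end (kb, horizontal axis) and pooled signal value (log axis). Filled circles are IDR peaks, open circles are relaxed peaks outside the IDR list, the dotted line is the lowest signal value in the IDR list (40.1), the blue bar is the gene and grey bars are other protein-coding genes with an arrowhead for their strand. The highest filled circle stands just left of the 5' end in lin-9, lin-54, lin-53, lin-35 and efl-1, while lin-37 and dpl-1 have open circles alone.

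Among the MuvB core genes, lin-54 and lin-9 had the highest peaks. lin-54 (WBGene00003037, chrIV:13241044-13243401, plus strand, ce11) encodes the DNA-binding subunit. Its peak, chrIV:13240582-13240781, had a pooled signal value of 212.5 and was 53rd of 30000 pooled peaks. In replicate 1 the overlapping peak had a signal value of 105.0 at rank 69, and in replicate 2 it had 102.9 at rank 35. Both replicates put this peak among their highest 100, and their summits were 1 bp apart. Its summit was 373 bp upstream of lin-54 but 20 bp upstream of rpl-12, a gene for a large ribosomal subunit protein on the opposite strand. Only 393 bp separated the 5' ends of lin-54 and rpl-12, so the peak cannot be assigned to one of them. A peak at least as high stood within reach of 88 genes in all (0.441%).

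lin-9 (WBGene00002998, chrIII:8900237-8904131, minus strand) encodes a core subunit conserved from worms to humans. Its peak had a pooled signal value of 185.7 at rank 65, with its summit 155 bp upstream. The overlapping peak had a signal value of 106.4 at rank 68 in replicate 1 and of 77.6 at rank 75 in replicate 2, with summits 20 bp apart. As at lin-54, both replicates ranked it in their highest 100. The next protein-coding 5' end, of unc-32, a vacuolar ATPase subunit gene, was 1329 bp from the summit, so lin-9 was the only protein-coding gene with a 5' end within 500 bp. Peaks this high stood within reach of 116 genes (0.581%). The peaks at lin-54 and lin-9 were 200 and 165 bp wide, narrower than the 336 bp common to most IDR peaks. Of the 100 highest IDR peaks, 83 were narrower than 336 bp, so narrow width went with high signal in the list as a whole.

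Each of these genes had a second, lower IDR peak farther upstream and nearer to another gene. The second lin-54 peak, chrIV:13239400-13239735, had a pooled signal value of 45.9 at rank 1660 and lay 1476 bp from lin-54, 154 bp upstream of tag-115. It ranked 2532 in replicate 1 and 1319 in replicate 2. The second lin-9 peak, chrIII:8905193-8905528, had a signal value of 42.7 at rank 1918 and lay 1230 bp from lin-9, 254 bp from the 5' end of unc-32 and 227 bp from that of the non-coding gene ZK637.19. It ranked 1589 in replicate 1 and 4900 in replicate 2. Its summit base was soft-masked as a repeat in the genome sequence.

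lin-53 (WBGene00003036, chrI:9618196-9619760, minus strand) encodes a histone-binding WD40 protein that is also part of other chromatin complexes. Its peak, chrI:9619844-9620179, had a pooled signal value of 109.7 at rank 226. Replicate 1 gave 54.7 at rank 306 and replicate 2 gave 52.5 at rank 208. The ratio of replicate 1 to replicate 2 was 1.04, against a median of 1.29 over the nuclear IDR peaks found in both replicates. The summit was 252 bp upstream of lin-53 and 215 bp upstream of nra-2 on the opposite strand, a gene for a protein associated with nicotinic receptors, and the 5' ends of lin-53 and nra-2 were 467 bp apart. On its other side lin-53 is followed after 88 bp, on the same strand, by its paralogue rba-1. The same peak was the one IDR peak within reach of rba-1, 1905 bp from the 5' end of that gene.

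lin-52 (WBGene00003035, chrIII:9824083-9824750, minus strand), whose human counterpart links the core to the pocket protein, had an IDR peak that differed between the replicates. The peak, chrIII:9826105-9826440, was near the end of the list, with a pooled signal value of 41.3 at rank 2039 against a lowest value in the list of 40.1. Its signal value was 35.5 at rank 931 in replicate 1 and 4.89 at rank 23613 in replicate 2. The ratio of replicate 1 to replicate 2 was 7.27, against a median of 1.29 over the 2114 nuclear IDR peaks found in both replicates, and 3 of those (0.142%), this one included, had a ratio as high. The replicate summits were 172 bp apart, against a median of 29 bp and a 90th percentile of 103 bp. This peak was 1523 bp from lin-52 and nearer to the 5' ends of ZK632.9 (841 bp) and ZK632.10 (905 bp).

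Replicate 2 had its highest peak of the lin-52 region at another place. There a peak 805 bp from lin-52 and 123 bp upstream of ZK632.9 had a signal value of 26.1 at rank 1139. It overlapped a pooled peak (chrIII:9825471-9825806) of signal value 36.9 at rank 2498, which was outside the IDR list. The pooled peak nearest to the lin-52 5' end, with its summit 31 bp upstream, had a signal value of 26.5 at rank 4589. Replicate 1 gave it 18.6 at rank 3719 and replicate 2 gave it 9.64 at rank 7786. So lin-52 had relaxed signal at its own 5' end, below the IDR list. lin-52 and ZK632.9 lie on the same strand with 126 bp between them.

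lin-37 (WBGene00003022, chrIII:7070890-7072552, minus strand), a MuvB gene whose mammalian counterpart is needed for repression by the complex, had the lowest pooled value of the 8. Its 1 pooled peak, chrIII:7073979-7074314, had a signal value of 29.6 at rank 3714 and a −log10 q-value of 2.22, outside the IDR list. Replicate 1 gave 10.9 at rank 10484 and replicate 2 gave 18.7 at rank 2266. The summit was 1595 bp upstream of lin-37, beyond the gene ZK418.5, and 296 bp upstream of the 5' end of ZK418.5. Those 2 genes share a strand and are 60 bp apart. The peak was therefore at the upstream edge of a close pair of genes in the same orientation. The next gene upstream, ZK418.13 (chrIII:7074249-7076486), is on the same strand too, and the peak, though not its summit, extended into it. A peak as high stood within reach of 4770 genes (23.9%).

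The pocket protein gene lin-35 (WBGene00003020, chrI:5807709-5815637, plus strand), the one retinoblastoma-family gene of the worm, had a peak at chrI:5807373-5807708. Its pooled signal value was 82.8 at rank 451. Replicate 1 gave 50.1 at rank 383 and replicate 2 gave 36.4 at rank 554, with summits 11 bp apart. The summit was 168 bp upstream of lin-35 and 250 bp upstream of vps-51, a vesicle tethering gene on the opposite strand, with 418 bp between their 5' ends. The summit base was soft-masked as a repeat. Although lin-35 is the longest of the 8 genes (7929 bp), its 3 relaxed peaks with summits inside the gene had signal values of at most 17.9.

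The E2F gene efl-1 (WBGene00001161, chrV:16958590-16965675, minus strand) had a peak at chrV:16965665-16966000, 158 bp upstream. Its pooled signal value was 71.2 at rank 634, with 30.2 at rank 1378 in replicate 1 and 41.4 at rank 406 in replicate 2. Here replicate 2 was the higher, with a ratio of 0.728. The next protein-coding 5' end, of the F-box gene fbxa-90, was 981 bp away. Like the lin-9 peak, the efl-1 peak was within 500 bp of the 5' end of 1 protein-coding gene.

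Its partner dpl-1 (WBGene00001061, chrII:9169910-9172565, plus strand) had no IDR peak. A relaxed pooled peak, chrII:9169483-9169818, had a signal value of 32.5 at rank 3160, a −log10 q-value of 2.52 and its summit 259 bp upstream of dpl-1. Replicate 1 gave 15.1 at rank 5575 and replicate 2 gave 17.8 at rank 2482, so both replicates had it below their 2141 highest peaks. The summit lay in an exon of T23G7.2, a gene on the opposite strand that overlaps dpl-1 throughout. Of the heterodimer genes, efl-1 had a peak inside the IDR list, and the dpl-1 peak was below the lowest signal value of that list.

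**Figure D2:**
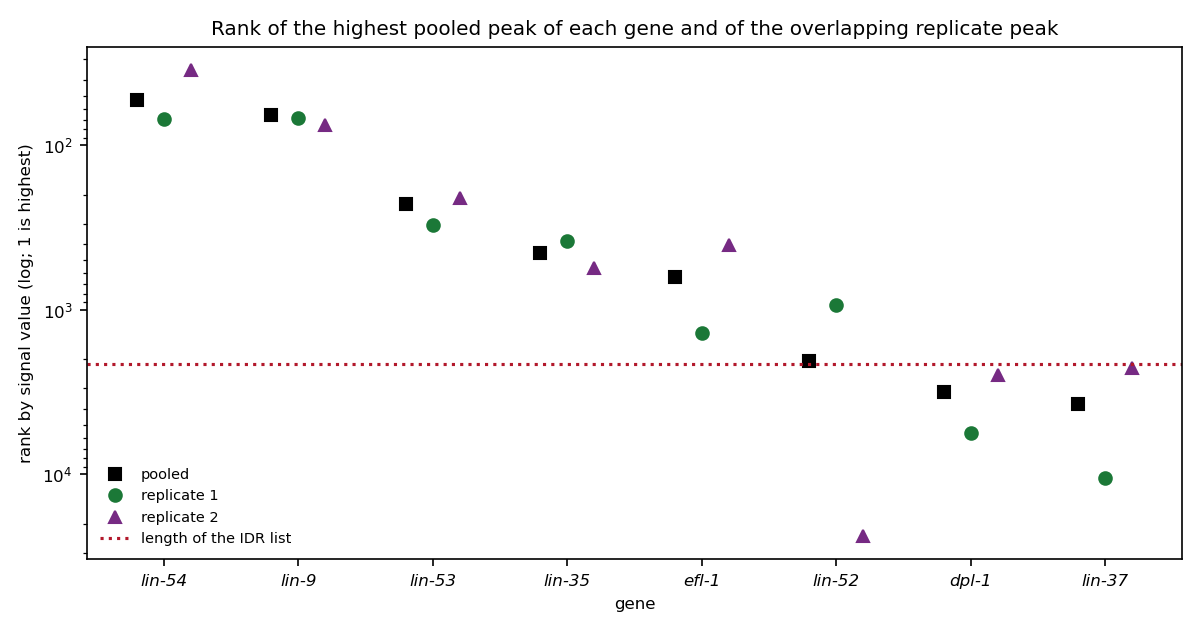
Rank by signal value (log axis, 1 is the highest of 30000) of the highest pooled peak of each gene (square) and of the overlapping peak in replicate 1 (circle) and replicate 2 (triangle). The dotted line is the length of the IDR list (2141). The 3 symbols stay above the line for lin-54, lin-9, lin-53, lin-35 and efl-1, lin-52 has replicate 2 far below it at 23613, and dpl-1 and lin-37 lie below it throughout.

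In the order of their highest pooled peak the genes stood as lin-54, lin-9, lin-53, lin-35, efl-1, lin-52, dpl-1 and lin-37. With 2 replicates, neighbours in this order were not always apart. Replicate 1 put lin-9 (106.4) just above lin-54 (105.0) and lin-52 (35.5) above efl-1 (30.2). Replicate 2 put efl-1 (41.4) above lin-35 (36.4) and lin-37 (18.7) above dpl-1 (17.8), and it put the overlapping lin-52 peak (4.89) below dpl-1 and lin-37. In both replicates lin-53 lay below lin-9 and lin-54 and above lin-35 and efl-1. The median rank of the highest pooled peak was 542.5 for the 8 genes, against 6398 over the 13418 genes with any pooled peak within reach.

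Of the 8 IDR peaks, the 5 near a 5' end were among the 2141 highest in both replicates. The second peaks of lin-9 and lin-54 and the lin-52 peak were outside the 2141 highest of one replicate. Over all nuclear IDR peaks, 81.5% overlapped one of the 2141 highest peaks of replicate 1 and 76.7% one of replicate 2. The 5 peaks near 5' ends had ratios of replicate 1 to replicate 2 from 0.728 at efl-1 to 1.38 at lin-35, on either side of the median of 1.29.

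**Figure D3:**
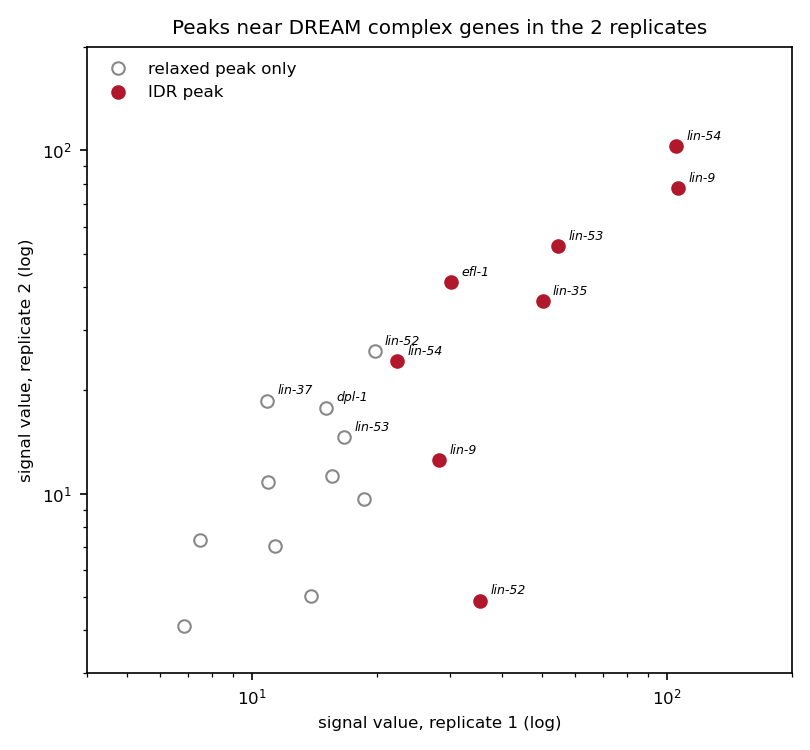
Signal value in replicate 1 (horizontal, log axis) against replicate 2 (vertical, log axis) for each pooled peak within 2 kb of the 8 genes that overlapped a peak in both replicates. Filled points are IDR peaks and open points are relaxed peaks outside the IDR list, with gene names beside the higher ones. The lin-54 and lin-9 peaks stand at the upper right, and the filled lin-52 point is at 35.5 in replicate 1 and 4.89 in replicate 2.

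Where the bound genes sat among their neighbours varied. Of the 5 peaks near a 5' end, 3 (lin-54 with rpl-12, lin-35 with vps-51, lin-53 with nra-2) were within 500 bp of the 5' ends of another protein-coding gene too, against 26.3% of the 1131 nuclear IDR summits near any protein-coding 5' end. A grouping chosen after these values were seen separated genes with a divergent neighbour, one on the opposite strand whose 5' end is at most 500 bp off, from the rest. Of 1959 genes with such a neighbour 20.7% had an IDR summit that close to their 5' end, and of 18014 genes without one 5.51% did. All 3 members with a divergent neighbour had a summit there, and 2 of the 5 others did, lin-9 and efl-1. A summit between divergent genes is counted for both of them.

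Most members with a summit had it at a short distance. At 200 bp from the gene it was 37.5% (3 of 8), at 400 bp 62.5% (5 of 8) and at 2000 bp 75% (6 of 8). Over all genes the same shares were 6.63%, 9.57% and 15.8%. The lin-52 peak was the step between 1500 and 1600 bp. The members are somewhat longer than other genes, with a median of 2507 bp against 2027 bp. A longer gene has a wider span searched, and whether this bears on the shares was not tested. The windows of the members held a median of 4 pooled relaxed summits, from 1 at lin-37 to 6 at lin-9, against 2 over all genes.

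**Figure D4:**
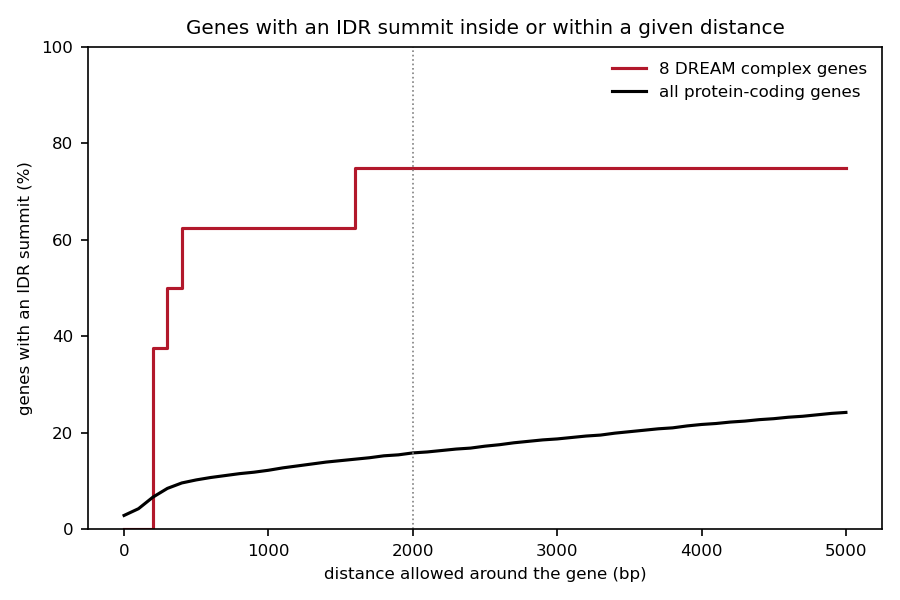
Share of genes (%, vertical axis) with an IDR summit inside the gene or within the distance on the horizontal axis (bp), for the 8 DREAM complex genes (red) and all 19973 protein-coding genes (black). The red line goes from 0 to 62.5% by 400 bp and stays at 75% from 1600 bp on. The black line reaches 15.8% at 2000 bp, the dotted line.

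E2F-like and CHR-like words were looked for, on both strands, in the 201 bp around each of the 8 IDR summits. So was GAGAGAG, which is not among the elements named above for DREAM. None of the words searched contains another. An E2F-like word was in 2 of the 8 windows, those of lin-54 (the high peak) and efl-1, against 9.76% of the windows of all 2121 nuclear IDR summits and 4.9% of relaxed windows outside the list. The lin-54 match was in the rpl-12 exon and is not among the bases printed. A CHR-like word was in 5 windows, at lin-9 (the high peak), lin-53, efl-1 and both lin-54 peaks. The short CHR-like words were common everywhere, in 42.9% of IDR windows and 54% of relaxed ones. The word GAGAGAG was in 0 of the 8 windows, where 19.8% of IDR windows and 6.4% of relaxed ones held it. A match is a string of letters and was not tested as a binding site.

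The longest words that 3 or more member windows had in common were 9 bases long and were chosen after the sequences were seen. GTGGAGCGC was in the windows of lin-54 and lin-9, which hold the highest member peaks, and of efl-1. It was in 1.84% of all IDR windows and 0.345% of relaxed ones. AGACGCAGA was in the windows of efl-1, lin-52 and the second lin-9 peak, in 11% of IDR windows and in 2.57% of relaxed ones. efl-1 had both words, starting at base 56 and base 78 of the printed sequence, beside its E2F-like and CHR-like words. The windows of lin-35 and lin-53 held neither. GC content of the 8 windows was 34.8 to 53.2% with a mean of 42.5%, close to the mean of all IDR windows (43.8%) and above that of relaxed windows (36.3%).

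Other genes of the pathway were counted in the same way, within 2 kb and against the 15.8% of all genes. Among 15 other synMuv B genes 8 had an IDR summit (53.3%), with a median signal value of 55.5 for their highest peak. The highest were lin-13 itself (285.6, rank 22, 782 bp from its 5' end), ubc-9, the SUMO-conjugating enzyme gene (120.0, 251 bp), and lin-36, which encodes a zinc-finger protein (92.7, 227 bp). The strain carries lin-13 in the transgene as well as in the genome, and reads from the 2 cannot be told apart. hpl-2, lin-61, met-2, lin-65, let-418, tam-1 and arle-14 had 0 IDR summits within reach.

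Among 12 regulators of the pathway and relatives of its members 5 had an IDR summit (41.7%), but within 500 bp of the gene 1 did (8.33%, against 10.2% of all genes). The highest were at rba-1, through the lin-53 peak, at cye-1, the cyclin E gene (105.2, 549 bp from its 5' end and 99 bp from that of pqn-21), and at lin-23, an F-box gene (82.3, 979 bp). The E2F relatives efl-2 and efl-3 had none, where efl-1 had one. Among 18 cell cycle genes of the kind that DREAM represses 7 had an IDR summit (38.9%), with a median signal value of 51.3. The highest were at the replication genes pcn-1 (89.3, 242 bp), mcm-4 (64.9, 155 bp) and mcm-2 (57.4, 263 bp). The peaks at lin-54, lin-9 and lin-53 were thus each higher than the peak of any gene in the cell cycle list. The lin-54 and lin-53 summits were, however, nearer to the 5' ends of rpl-12 and nra-2. The highest pooled peaks at lin-35 (82.8), efl-1, lin-52, dpl-1 and lin-37 were lower than the pcn-1 peak.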

How the data were processed

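LIN-13 ChIP-seq of 2 biological replicates, with fragments between 150 and 350 bp per the labels, was deposited by the authors as narrowPeak lists for builds ce11 and ce10. The deposited listings name a relaxed list per replicate, one of the replicates pooled, a control library used in calling, and the IDR list made from these. How reads were aligned and peaks called, and at which IDR threshold, is not given in the sources used here. Each peak's signal value and −log10 q-value are the authors' and were deposited without a stated scaling. Signal values were mostly compared within a list, and ranks across lists. The exceptions were the ratios of replicate 1 to replicate 2 and the plot of signal values in replicate 1 against replicate 2. Whether the replicate lists share a scaling is unknown. The ratios were therefore set against their median over the nuclear IDR peaks found in both replicates. The ce10 lists were not used, since no ce10 annotation was used here.

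Summits (peak start plus summit offset) were placed on ce11 with the Ensembl WBcel235 annotation, release 115, and printed counting from 1. Replicate peaks were matched to pooled peaks by an overlap of at least 1 bp, taking the highest. A 5' end is an annotated transcript start of a protein-coding gene unless a non-coding gene is named. Annotated starts in this species are often trans-splice sites. Mitochondrial peaks were left out of the gene counts, the motif windows and the replicate comparisons over all nuclear IDR peaks. They stayed in the ranks, the list totals, the median and lowest signal values of the IDR list and the counts of peak widths. Motif words were searched on both strands within 100 bp of a summit.

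The 8 genes, the pathway lists and the counts were chosen with earlier results of these data known. The genes named were the members, genes whose 5' end was nearest to or within 500 bp of a member's highest peak, the 3 genes with the highest peak in each pathway list, and lin-13; other neighbours and pathway genes were named after their values were seen. No p-value was computed, because there was 1 group and the peaks came from pooled replicates. Counts are given beside the same count over all protein-coding genes. Alternatives were other distances, lists, single replicates, windows and rules for shared peaks. The counting of genes by distance from a summit and the search for words were tested on simulated data. The matching of replicate peaks and the other steps were not. Python 3.11.15, NumPy 2.4.6, pandas 2.3.3 and matplotlib 3.10.9 were used.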

Additional observations from a re-analysis of the deposited data

How the results depend on the processing

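The IDR list was replaced by the 2141 highest peaks of 1 replicate. The count of 6 of 8 genes with a summit within 2 kb was then 6 with replicate 1 (15.8% of genes) and 6 with replicate 2 (15.5%). In replicate 2 lin-52 counted through another peak, 805 bp from its 5' end at rank 1139, since its IDR peak ranked 23613 there. The count of 5 of 8 near a 5' end was 5 with either replicate. The median rank of the members' highest IDR peaks was 338.5 in the pooled list. For the highest peaks of the same 6 genes it was 344.5 in replicate 1 and 307 in replicate 2. The count of 6 became 0 with summits inside the gene alone (2.83% of genes) and 3 when a peak counted for the nearest 5' end alone (6.18%). It was 8 in the 4282 highest pooled peaks (26.2%). The count of 5 became 3 at 200 bp (3.43%) and 2 for summits near the 5' ends of 1 protein-coding gene (4.07%). The 3 of 5 peaks shared with another gene (26.3% of all such summits) became 0 of 3 at 200 bp (12.4%) and 4 of 5 at 1000 bp (34.8%). With genes of all biotypes counted the members stayed at 3 of 5, and the share over all summits rose to 44.8%. The 2 windows with an E2F-like word became 1 at 50 bp on either side (6.27% of all IDR windows) and 4 at 150 bp (11.3%), and the 5 with a CHR-like word became 3 at 50 bp (22.2%). For the pathway lists, set against 2.83% of all genes inside the gene and 10.2% within 500 bp, the 8 other synMuv B genes became 1 (6.67%) and 5 (33.3%). The 5 regulators and relatives became 1 (8.33%) at both distances, which within 500 bp is below the share of all genes. The 7 cell cycle genes became 0 inside the gene and were 5 (27.8%) within 500 bp. Shorter distances and narrower windows leave fewer summits and bases to count. The rules for the nearest 5' end and for 1 gene alone leave out peaks nearer to, or shared with, another gene. No cause of these changes was tested. No paired analysis was possible because both replicates belong to the same group. Depth is unknown, so a gene without an IDR peak, such as lin-37 or dpl-1, cannot be called unbound.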
